A study of Mus musculus with 19 samples.

Results

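The THO complex and its helicase partner were followed in RNA from single preimplantation mouse embryos. The genes are the THO subunits Thoc1, Thoc2, Thoc3, Thoc5, Thoc6 and Thoc7, the RNA helicase Ddx39b and the RNA-binding protein Sarnp. They were taken by gene symbol from the deposited count table and are 8 of its 53379 gene rows. All 8 passed the filter on low values, an FPKM of 1 or more in at least 2 embryos, as did 18410 genes in all. Levels are given as CPM, the count scaled to the depth and composition of its library, or as FPKM, the CPM per kilobase of merged exons, which alone compares levels between genes.

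Each of the 19 libraries held polyA RNA from 1 embryo, made by in vitro fertilisation, grown in KSOM medium and collected 96 hours after insemination. Parents were heterozygous for a deletion of Alyref or of Gabpb1, and wild-type (WT) B6D2F1 mice gave the controls. From the Alyref cross came 2 Alyref-/- (KO) morulae, with 3 morulae and 3 blastocysts that are not KO, and from the Gabpb1 cross 3 morulae labelled Gabpb1-/- (KO), with 2 morulae and 3 blastocysts that are not KO. There were 3 WT blastocysts and no WT morulae. A non-KO embryo may be WT or heterozygous, and KO embryos were picked out from the same libraries by the absence of reads over the deleted region. Nothing in the labels says that embryos of a group came from separate fertilisations or parents, so the tests measure only the spread between these embryos. Each library is a whole embryo, so that fewer cells of a type and less RNA per cell cannot be told apart.

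THO is assembled on RNA that is still being transcribed and, with Ddx39b (also called UAP56), forms the core of the TREX complex, which couples transcription and splicing to export of mRNA from the nucleus. Ddx39b uses ATP to load export adaptors onto RNA, and Alyref is the best known of these adaptors. The loaded adaptors recruit the export receptor Nxf1 with Nxt1, which carries the RNA through the nuclear pore. Gabpb1 encodes the beta subunit of the transcription factor GABP, whose alpha subunit binds DNA of the ETS type.

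The libraries held 7486125 to 31536282 gene counts (median 13633603) and 0.501% to 1.95% of ERCC spike-in counts. The targeted gene Alyref had 47.8 and 58.5 CPM in the KO morulae of its cross and 161 to 291 CPM in the 3 others. Gabpb1 was at 78.2, 259 and 151 CPM in the morulae labelled Gabpb1 KO and at 93.8 and 83.3 CPM in their non-KO counterparts, so its summed level does not mark the label, and every direction given below for that group rests on the label. Summed markers of trophectoderm, the outer layer of the blastocyst, were at 5510 to 8931 CPM in all blastocysts and at 343 to 5257 CPM in the morulae. WT blastocyst 1 stands apart, with 273 CPM of Xist, the RNA of the inactive X chromosome, and 171 CPM summed over 4 Y-linked genes. Markers of cumulus cells, which surround the oocyte, summed to at most 0.896 CPM in any library.

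All 8 genes were expressed in every embryo, from a lowest raw count of 189 for Thoc5 to a highest of 6104 for Ddx39b. Per kilobase, Sarnp had the highest level, 98.3 ± 14.3 FPKM (SD, n = 19), followed by Thoc3 at 59.6 ± 18.0 FPKM. Ddx39b was at 38.3 ± 12.7 FPKM, Thoc1 at 30.7 ± 9.97, Thoc6 at 27.6 ± 7.16 and Thoc7 at 23.7 ± 5.08 FPKM. Thoc5 at 14.1 ± 4.04 and Thoc2 at 13.4 ± 3.66 FPKM were lowest. Neighbours from Ddx39b to Thoc7, and the pair Thoc5 and Thoc2, differed by less than 1 SD of either gene, so that subunits of 1 complex were spread over a range of mRNA levels whose ends lie well outside that spread. Ddx39a, the paralog of Ddx39b with a like activity, was at 127 ± 37.2 FPKM and above Ddx39b in mean level. These levels depend on the merged exon lengths of the table, which run from 1360 bases for Sarnp to 6561 for Thoc7 and 12666 for Thoc2.

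Sarnp varied least over the 19 embryos, with a coefficient of variation of 14.6%, and its lowest and highest values were 86.7 and 161 CPM. Of 6501 tested genes with a mean of 20 to 300 CPM, 2.28% had a lower coefficient. Thoc7 (21.4%), Thoc6 (26.0%), Thoc2 (27.3%), Thoc5 (28.6%) and Thoc3 (30.3%) were below the median of those genes, 32.04%, and Thoc1 (32.5%) and Ddx39b (33.3%) just above it. Ddx39b had the widest range of the 8, from 55.6 to 220 CPM, a ratio of 3.96.

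**Figure D1:**
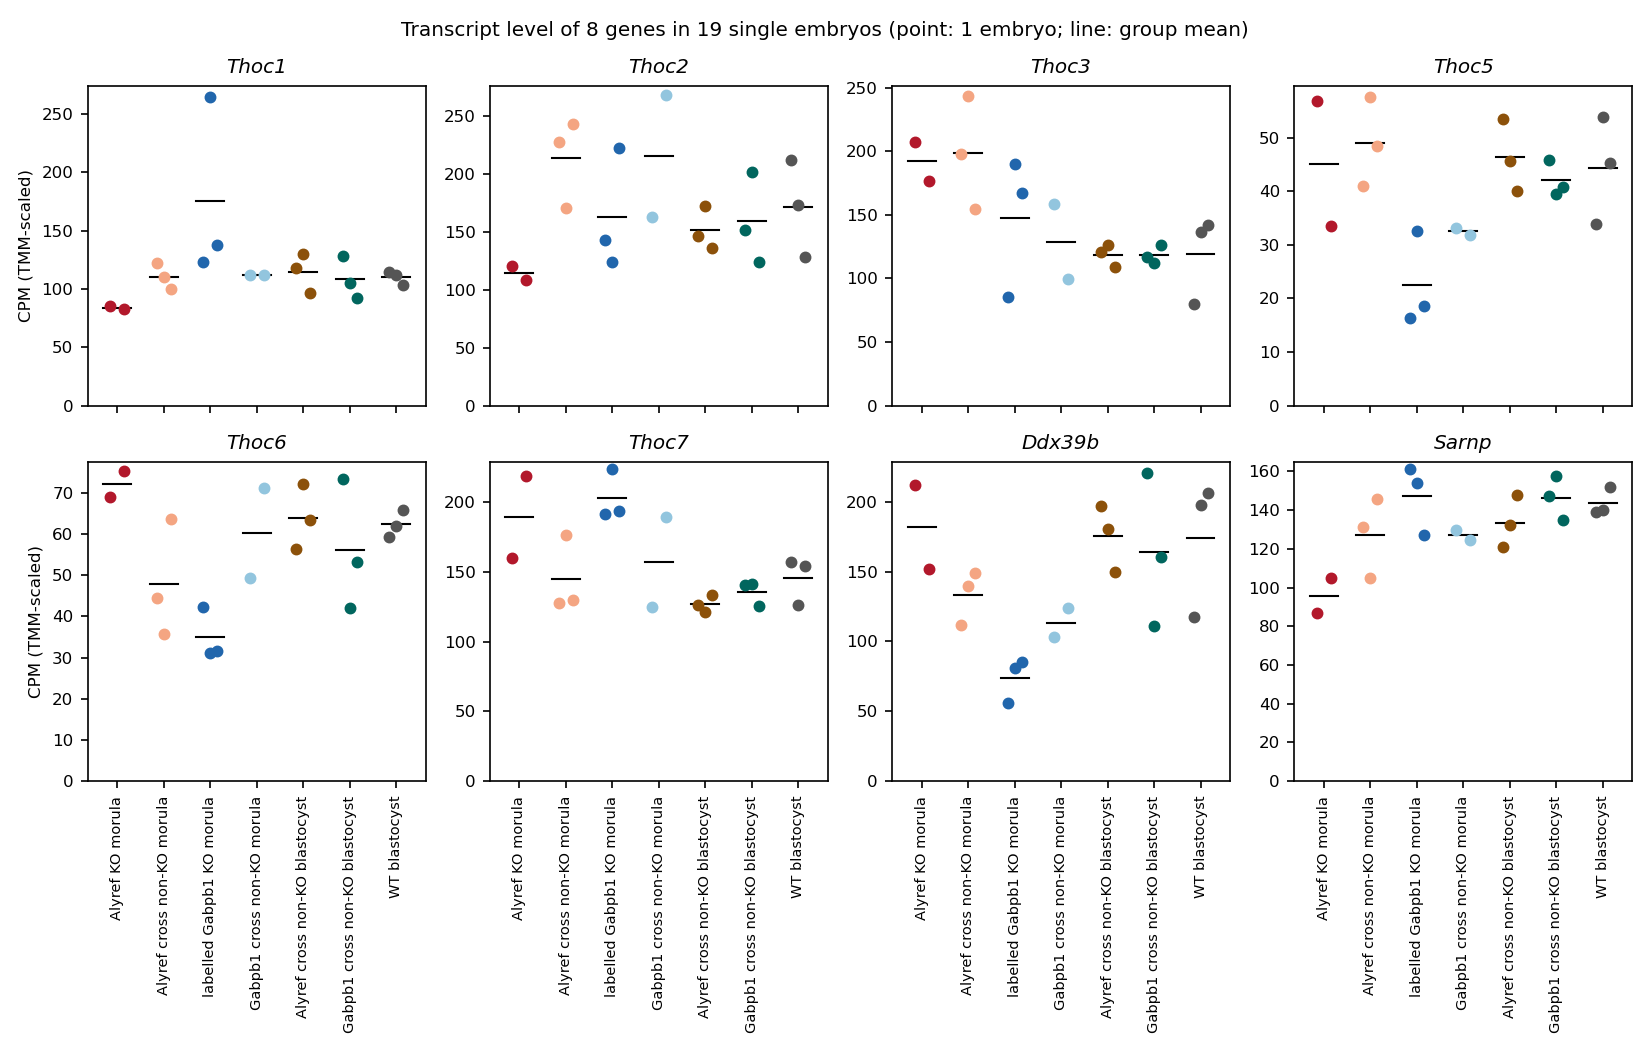
Level of each of the 8 genes in CPM (y axis) in every embryo by group (x axis); points are embryos and horizontal lines are group means. The 3 embryos labelled Gabpb1 KO hold the lowest Ddx39b values of all 19, from 55.6 to 85.3 CPM, and the 2 Alyref KO morulae the lowest Thoc1 values, 82.6 and 85.0 CPM.

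None of the 8 genes passed the test in either KO comparison. Against non-KO morulae of the same cross, edgeR's quasi-likelihood test with Benjamini-Hochberg adjustment called 0 of 8 in Alyref KO morulae, where 0.228% of all tested genes were called. It called 0 of 8 in the morulae labelled Gabpb1 KO, where 1.65% of genes were called. At an unadjusted p under 0.05 there were 3 of 8 in the Alyref comparison (12.1% of all genes) and 2 of 8 in the Gabpb1 comparison (18.9% of all genes). The 2 groups of morulae did not overlap for 4 of 8 genes in the Alyref comparison, against 24.9% of all genes, and for 4 of 8 in the Gabpb1 comparison, against 32.2%. DESeq2, limma on log2(FPKM + 1) and limma with embryo weights also called 0 of 8 in both, where they called 2.66%, 0.891% and 4.57% of all genes in the Alyref comparison and 6.87%, 2.89% and 2.51% in the Gabpb1 comparison. With 2 and 3 embryos a side, the median standard error of the members' log2 fold changes was 0.29 in the Alyref comparison and 0.28 in the Gabpb1 comparison. These errors, the intervals and the calls rest on a spread estimated over all 19 embryos, blastocysts included. Fitted on the compared groups alone, the edgeR test called 0 of all 18410 genes in either comparison.

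Thoc1 is the subunit related to yeast Hpr1 and lies on chr18:9958180-9995484 (mm10, + strand). In Alyref KO morulae it was at 85.0 and 82.6 CPM, and in the 3 non-KO morulae at 122, 110 and 99.7 CPM. Both KO values were below all other embryos of the series. The fitted ratio of KO to non-KO was 0.758 (95% interval 0.509 to 1.13, adjusted p = 0.610). In the morulae labelled Gabpb1 KO Thoc1 was at 123, 265 and 137 CPM, against 112 and 112 CPM in the non-KO morulae, again without overlap but in the other direction. The ratio was 1.56 (1.05 to 2.33, adjusted p = 0.220). Labelled Gabpb1 KO morula 2, at 265 CPM, has the highest value of any embryo, and without it the log2 difference was 0.20 in place of 0.64. With all embryos and scaling to the spike-ins the log2 difference was -0.07, while the median of all genes was -0.40 in place of 0.06.

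Thoc2, the largest THO subunit and the scaffold of the complex, is X-linked (chrX:41794991-41920674, - strand). It showed the largest KO difference of the 8 in the Alyref cross, with 120 and 108 CPM in the KO morulae and 227, 170 and 243 CPM in the non-KO morulae. The groups did not overlap, and the ratio was 0.536 (0.340 to 0.845, adjusted p = 0.232). The embryos also differ in sex chromosome transcripts. Both Alyref KO morulae had 153 or more CPM of the Y-linked genes Eif2s3y, Ddx3y, Kdm5d and Uty together and 0.924 and 2.20 CPM of Xist. Of the 3 non-KO morulae, numbers 1 and 3 had at most 0.129 CPM of the Y-linked genes and 95.2 and 274 CPM of Xist, and these are the embryos at 227 and 243 CPM of Thoc2. Number 2, with 225 CPM of the Y-linked genes, had 170 CPM of Thoc2, still above both KO values. With Y-linked level as a covariate, an alternative chosen after seeing the data, the log2 difference was -0.58 (adjusted p = 0.450) in place of -0.90.

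Over the whole series, Thoc2 was at 108 to 212 CPM (median 146) in the 13 embryos with Y-linked transcripts and at 124 to 268 CPM (median 224) in the 6 without. The ranges overlap. The exception among the 6 is Gabpb1-cross blastocyst 3, with 124 CPM of Thoc2 and 57.8 CPM of Xist, and the highest value among the 13 is that of WT blastocyst 1, which carries both Xist and Y-linked transcripts. By pattern, the tested genes most like Thoc2 were Xist (r = 0.86 of log2(CPM + 1) over 19 embryos), Tsix (r = 0.84) and Magea8 (r = 0.78), and of 6174 genes compared 0.194% had an r above 0.7. Xist and Tsix overlap on opposite strands, and the library kit does not mark strand, so their reads cannot be told apart. Among 237 X-linked genes Thoc2 ranked 2 by its r with Xist, where the median was 0.32. Of the Gabpb1 cross, Thoc2 was at 143, 124 and 222 CPM in the embryos labelled KO and at 163 and 268 CPM in the others, and in each group the highest embryo is the 1 without Y-linked transcripts. Without non-KO morula 2, the embryo at 268 CPM, the log2 difference was 0.00 in place of -0.40.

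**Figure D2:**
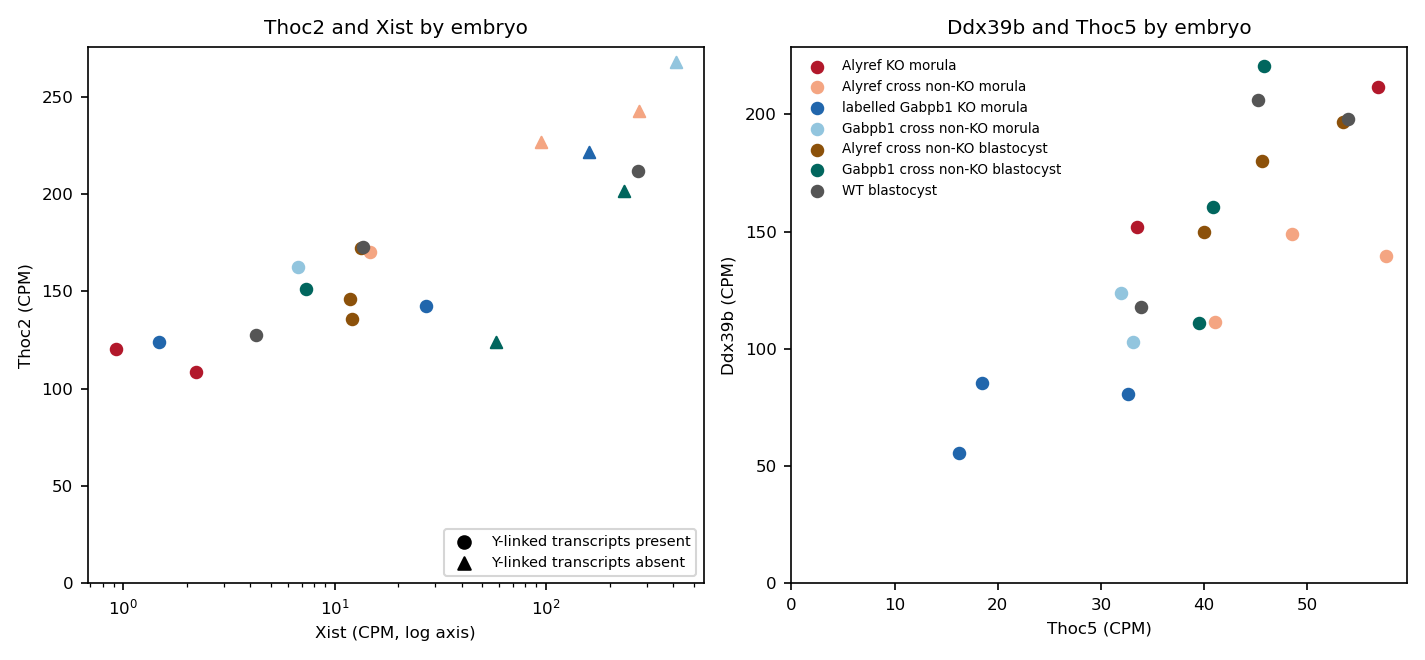
Scatter plots of gene pairs over the 19 embryos, each point 1 embryo with its group by colour and all axes in CPM, that of Xist on a log scale; triangles on the left mark embryos without Y-linked transcripts. Thoc2 and Xist share high and low embryos (r = 0.86), as do Thoc5 and Ddx39b (r = 0.84).

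Thoc3 is a WD-repeat subunit of the core and lies on chr13:54458837-54468849 (- strand). In Alyref KO morulae it was at 207 and 177 CPM, inside the non-KO range of 155 to 243 CPM, with a ratio of 0.967 (0.604 to 1.55, adjusted p = 0.981). In the embryos labelled Gabpb1 KO it was at 85.0, 190 and 167 CPM, against 159 and 99.2 CPM, with a ratio of 1.14 (0.711 to 1.83). The direction of both differences depends on scaling or on a single embryo: with scaling to the spike-ins they were 0.04 and -0.54 on the log2 scale, in place of -0.05 and 0.19. Thoc3 differs more between morulae and blastocysts, described further on.

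Thoc5 and Thoc7 are coiled-coil subunits that sit together in the complex. Thoc5 (chr11:4895320-4928867, + strand) was at 16.3, 32.7 and 18.5 CPM in the morulae labelled Gabpb1 KO and at 33.1 and 31.9 CPM in the non-KO morulae. The values 16.3 and 18.5 CPM are the lowest of the series, while the remaining embryo lies between the non-KO values. The ratio was 0.691 (0.441 to 1.08, adjusted p = 0.363), and the log2 difference of -0.53 was -0.91 without labelled KO morula 2 and -0.35 without labelled KO morula 1. In Alyref KO morulae Thoc5 was at 56.9 and 33.5 CPM and in non-KO morulae at 41.0, 57.6 and 48.6 CPM, with a ratio of 0.920 (0.584 to 1.45). KO morula 1 lies inside the range of the control values and KO morula 2 below it. Without KO morula 2 the log2 difference was 0.19 in place of -0.12, and without KO morula 1 it was -0.55.

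Thoc7 (chr14:13949012-13961852, - strand) had positive log2 differences in both KO comparisons. It was at 160 and 218 CPM in Alyref KO morulae, against 128, 176 and 129 CPM, which overlap. It was at 191, 224 and 194 CPM in the embryos labelled Gabpb1 KO, against 124 and 189 CPM, which do not. The ratios were 1.31 (0.961 to 1.78, adjusted p = 0.490) and 1.29 (0.944 to 1.77, adjusted p = 0.364). In the Alyref cross the log2 difference was 0.12 without KO morula 2 in place of 0.39 and 0.60 without KO morula 1, and in the Gabpb1 cross 0.10 without non-KO morula 1 in place of 0.37 and 0.70 without non-KO morula 2. Its exons share 316 of 6561 bases with Gm11100 on the other strand.

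Thoc6, the other WD-repeat subunit, which helps to join THO units into a larger assembly, had log2 differences of opposite sign in the crosses. It lies on chr17:23668614-23673882 (- strand). In Alyref KO morulae it was at 68.9 and 75.4 CPM, above the non-KO values of 44.4, 35.7 and 63.6 CPM, a ratio of 1.51 (1.01 to 2.25, adjusted p = 0.396). Under the Gabpb1 KO label the values were 42.4, 31.1 and 31.7 CPM, below the non-KO values of 49.2 and 71.3 CPM, a ratio of 0.582 (0.390 to 0.869, adjusted p = 0.144). Neither pair of groups overlapped, and 31.1 and 31.7 CPM are the lowest values of the series. Without Gabpb1-cross non-KO morula 2, the embryo at 71.3 CPM, the log2 difference of the Gabpb1 comparison was -0.49 in place of -0.78. Its exons share 287 of 2026 bases with Hcfc1r1 on the other strand, whose reads there cannot be told apart from its own. Shorter overlaps are those of Thoc1 with Usp14 on the other strand (53 of 3855 bases, median Usp14 count 7554) and Sarnp with Dnajc14 on the same strand (55 of 1360). Ddx39b shares 90 of 3783 bases with Mir8094 and 77 with Gm22589, both on its own strand.

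Ddx39b, the DEAD-box helicase that THO holds and activates, lies on chr17:35241746-35253707 (+ strand) and followed the same order. The morulae labelled Gabpb1 KO had 55.6, 80.7 and 85.3 CPM, and their non-KO counterparts 103 and 124 CPM. These 3 embryos are the lowest of the 19. The ratio was 0.652 (0.420 to 1.01, adjusted p = 0.277). The lowest and highest log2 differences on leaving out 1 embryo were -0.75 and -0.45, so that the direction did not rest on a single embryo. In Alyref KO morulae Ddx39b was at 212 and 152 CPM, above the non-KO values of 112, 140 and 149 CPM, with a ratio of 1.36 (0.878 to 2.12, adjusted p = 0.603). Here KO morula 1 carries most of the difference: without it the log2 value was 0.19 in place of 0.45.

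Among Gabpb1-cross morulae the summed trophectoderm markers, 10 genes with counts in every embryo of both groups, were at 343 to 3170 CPM in the morulae labelled KO and at 3289 to 5257 CPM in the non-KO morulae, and the 8 markers of the inner cell mass summed to 430 to 522 and 226 to 344 CPM. Both sets of ranges separate the same groups of embryos as Ddx39b, Thoc6, Thoc1 and Thoc7 do, and their part in these differences was not tested. In the Alyref cross the trophectoderm sums were 763 to 1667 CPM in KO and 632 to 2446 CPM in non-KO morulae.

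Sarnp (chr10:128817333-128877629, + strand), a small RNA-binding protein that joins Ddx39b and Alyref in TREX, was at 86.7 and 105 CPM in Alyref KO morulae and at 131, 105 and 145 CPM in non-KO morulae. The value 86.7 CPM is the lowest of the series, and KO morula 2 lies level with the lowest non-KO embryo. The ratio was 0.754 (0.577 to 0.985, adjusted p = 0.376). In the embryos labelled Gabpb1 KO Sarnp was at 161, 154 and 127 CPM, against 130 and 125 CPM, a ratio of 1.16 (0.889 to 1.51).

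**Figure D3:**
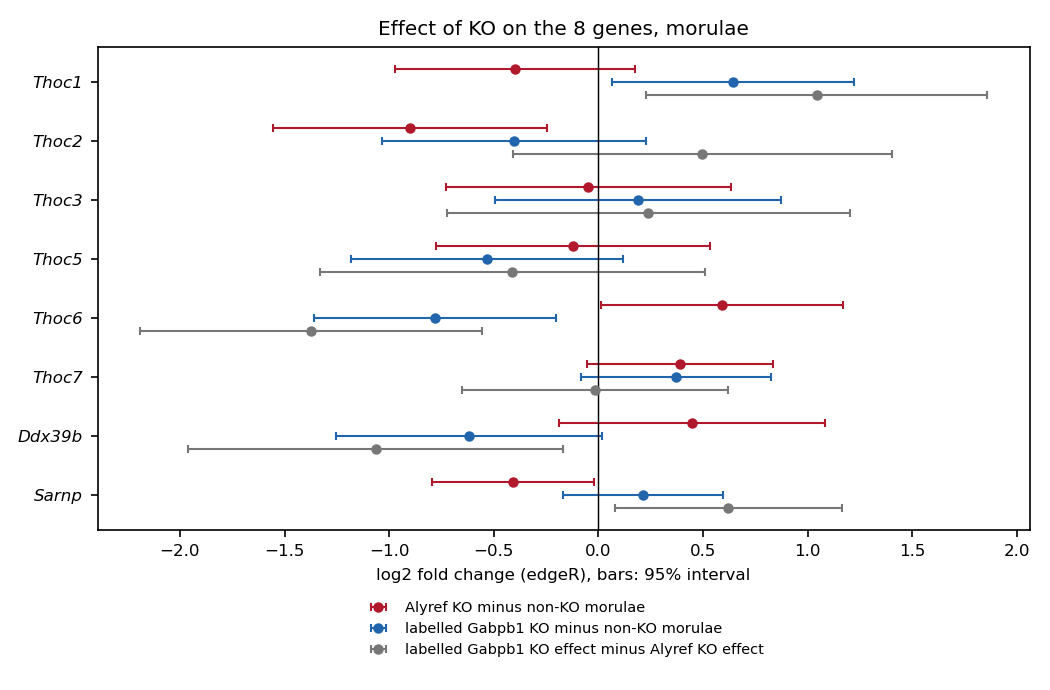
Log2 fold changes of the 8 genes (points) with 95% intervals (bars) for Alyref KO against non-KO morulae, labelled Gabpb1 KO against non-KO morulae, and the difference between these effects. No gene passed the adjusted threshold in any comparison; Thoc6 lies farthest from 0 in the difference, at -1.37.

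Whether the KO effects differ was tested as an interaction, the effect under the Gabpb1 label minus that of Alyref KO. It called 0 of 8 genes, where 0.907% of all genes were called, and 4 of 8 had an unadjusted p under 0.05, against 16.8% of all genes. Thoc6 had the largest difference, -1.37 on the log2 scale (SE 0.38, adjusted p = 0.0989). DESeq2, which called 4.86% of all genes here, called it (adjusted p = 0.0170), as did limma with embryo weights, which called 4.20% (adjusted p = 0.0387), and edgeR without Alyref-cross non-KO morula 3 (adjusted p = 0.0304). Limma on log2(FPKM + 1) did not (adjusted p = 0.0866). The effects also differed for Ddx39b by -1.06 (adjusted p = 0.219), for Thoc1 by 1.04 (adjusted p = 0.193) and for Sarnp by 0.62 (adjusted p = 0.237), none of which passed. Without labelled Gabpb1 KO morula 2 the value of Thoc1 was 0.61. Over the remaining genes the difference was between -0.41 for Thoc5 and 0.50 for Thoc2.

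The promoters of Ddx39b and Thoc5 are shown because they hold the letters CCGGAAG, an ETS-type core that GABP is known to bind. They were chosen after the values were seen, both genes being lower in mean level in the embryos labelled Gabpb1 KO. Thoc6 and Thoc2 were also lower in mean level there, and their promoters that were read hold no match. The sequences are from RefSeq on GRCm38.p6, from 250 bases before to 50 bases after an annotated start, in lower case with each match to CCGGAAG, or to its other strand CTTCCGG, in capitals. Ddx39b is chr17:35241496-35241795 (+ strand) and Thoc5 chr11:4895093-4895392 (+ strand).
Ddx39b: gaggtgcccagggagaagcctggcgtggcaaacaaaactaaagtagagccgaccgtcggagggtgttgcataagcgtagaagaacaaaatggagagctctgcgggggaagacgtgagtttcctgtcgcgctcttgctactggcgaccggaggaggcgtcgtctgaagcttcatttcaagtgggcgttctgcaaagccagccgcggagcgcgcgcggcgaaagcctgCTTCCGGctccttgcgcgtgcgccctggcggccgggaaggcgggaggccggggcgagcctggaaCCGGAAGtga
Thoc5: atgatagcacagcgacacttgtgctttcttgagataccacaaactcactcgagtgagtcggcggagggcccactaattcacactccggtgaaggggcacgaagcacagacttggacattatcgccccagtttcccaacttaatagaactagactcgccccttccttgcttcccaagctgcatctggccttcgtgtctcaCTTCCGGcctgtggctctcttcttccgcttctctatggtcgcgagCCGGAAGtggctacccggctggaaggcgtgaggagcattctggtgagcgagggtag
In Ddx39b the matches begin at positions -24 and 41 from the start, and in Thoc5 at positions -51 and -6. The promoters of Sarnp, Thoc2, Thoc6 and Thoc7 that were read hold no such run of letters. That of Thoc1 was not read, and none was used for Thoc3. Of all 32851 promoters given by RefSeq, 8.86% hold the motif on either strand, and of 9567 tested genes with a promoter there 20.8% do.

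Among those 1988 genes with the motif the median log2 difference in the labelled Gabpb1 KO morulae was -0.16, and 59.9% were below 0. Among the 7579 without it the median was 0.00, and 49.7% were below 0. In the Alyref KO comparison both medians were -0.04. Of the 6 genes described, Ddx39b and Thoc5 have the motif and log2 differences of -0.62 and -0.53 in the Gabpb1 comparison, while the genes without it in the window read are at -0.78 (Thoc6), -0.40 (Thoc2), 0.21 (Sarnp) and 0.37 (Thoc7). Thoc1 and Thoc3, whose promoters are not described, are at 0.64 and 0.19. A match is only a run of letters, and binding was not measured. The cause of the gap between these medians was not tested. The same groups of morulae also separate by their trophectoderm and inner cell mass sums, and the level of Gabpb1 does not mark the label.

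Stage was compared in non-KO embryos collected at the same 96 hours, blastocysts against morulae of the same cross. With 1 time point and no WT morulae, stage and slower development of the morulae cannot be told apart. These morulae are also the controls of the KO comparisons. For the Alyref cross the test called 0 of 8, where 13.0% of all genes passed, and 1 of 8 had an unadjusted p under 0.05, against 31.1%. For the Gabpb1 cross it called 0 of 8, as it did 0% of all genes, and 0 of 8 had an unadjusted p under 0.05, against 6.72%. The groups did not overlap for 2 of 8 genes in each cross, against 38.9% and 23.1% of all genes. The median absolute log2 difference of the 8 genes in the Alyref cross was 0.29, below the 0.60 of all genes.

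Thoc3 had the largest stage difference. In the Alyref cross it was at 121, 126 and 109 CPM in blastocysts and at 198, 243 and 155 CPM in morulae, with no overlap, a ratio of 0.598 (0.392 to 0.912, adjusted p = 0.0930). Limma with embryo weights, which called 39.4% of all genes here, called it (adjusted p = 0.00729), and so did edgeR without non-KO morula 3 of the Alyref cross (adjusted p = 0.0465) or without labelled Gabpb1 KO morula 1 (adjusted p = 0.0435). In the Gabpb1 cross Thoc3 was at 117, 112 and 126 CPM in blastocysts and 159 and 99.2 CPM in morulae, which overlap. The stage effects of the crosses differed by 0.62 on the log2 scale (adjusted p = 0.529), or by 0.32 without Gabpb1-cross non-KO morula 2 and 1.00 without non-KO morula 1, and 0 of 8 genes were called in that test, where 0.00543% of all genes were. At an unadjusted p under 0.05 there were 0 of 8, against 13.8%. Ddx39a had a like difference in the Alyref cross, 602, 517 and 558 CPM in blastocysts against 954, 887 and 772 CPM in morulae (log2 -0.64, adjusted p = 0.0622).

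Ddx39b had a positive stage difference in both crosses. It was at 197, 180 and 150 CPM in Alyref-cross blastocysts against 112, 140 and 149 CPM in morulae, which just fail to overlap (log2 0.40, adjusted p = 0.331). In the Gabpb1 cross it was at 220, 111 and 161 CPM against 103 and 124 CPM, which overlap (log2 0.53, adjusted p = 0.789). With scaling to the spike-ins the first value was 0.08, while the median of all genes was -0.34 in place of -0.04. The second value, that of the Gabpb1 cross, was -0.28, while the median was -0.86 in place of 0.02. Without blastocyst 1 of that cross it was 0.26. For Thoc2 the log2 values were -0.49 in the Alyref cross and -0.44 in the Gabpb1 cross. All 3 Alyref-cross blastocysts carry Y-linked transcripts, at 250 CPM or more, and only 1 of the 3 morulae does, and with Y-linked level as a covariate the first value was -0.14. Without Gabpb1-cross non-KO morula 2 the second was -0.04. Thoc6 had a difference of 0.42 in the Alyref cross, which was 0.28 without non-KO morula 2 and 0.68 without non-KO morula 3. With scaling to the spike-ins it was 0.000922, while the median of all genes was -0.34. Thoc5 had a difference of 0.37 in the Gabpb1 cross, and of -0.49 with that scaling, where the median was -0.86. In the Gabpb1 cross the blastocysts were above the morulae without overlap for Thoc5 (45.8, 39.6 and 40.9 against 33.1 and 31.9 CPM) and for Sarnp (147, 157 and 135 against 130 and 125 CPM).

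The non-KO morulae of the Gabpb1 cross were set against those of the Alyref cross to see how far the controls themselves differ. Of the 8 genes 0 were called, against 1.86% of all genes, and 0 had an unadjusted p under 0.05, against 22.4%. Thoc5 did not overlap, with 33.1 and 31.9 CPM in the Gabpb1 cross and 41.0 to 57.6 CPM in the Alyref cross (log2 -0.59, adjusted p = 0.271), and it was 1 of 8, against 36.1% of all genes. The log2 difference of Thoc3 was -0.62 (adjusted p = 0.267), and it was -0.32 without Gabpb1-cross morula 2 and -1.0 without morula 1. The trophectoderm sums of these groups, 3289 to 5257 CPM in the Gabpb1 cross and 632 to 2446 CPM in the Alyref cross, do not overlap either, nor do those of the inner cell mass, 226 to 344 and 601 to 720 CPM, and their part in these differences was not tested. Blastocysts of each cross were also set against WT blastocysts, which both comparisons share. For the Alyref cross the test called 0 of 8, and 0% of all genes, and the log2 differences ran from -0.20 to 0.07. For the Gabpb1 cross it called 0 of 8, and 0% of all genes, with differences from -0.15 to 0.03. At an unadjusted p under 0.05 both had 0 of 8, against 2.94% and 6.10% of all genes, and no gene of the 8 had groups that did not overlap, against 12.2% and 12.8%. Without WT blastocyst 1, which stands apart, the test again called 0 of 8 in both.

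The 8 mRNAs did not vary as 1 block from embryo to embryo. Of 28 pairs, 11 had a positive and 17 a negative Pearson r of log2(CPM + 1) over the 19 embryos, with a median of -0.17. The points share scaling, groups and stage, and the values are given as a description. Thoc5 and Ddx39b had the highest r, 0.84 (Spearman's rho 0.74), and 0.66 after group means were removed. Thoc6 and Ddx39b followed at 0.71 (rho 0.73), but at 0.31 within groups. The lowest was Thoc1 with Thoc6, -0.58 (rho -0.38), and -0.13 within groups. Within groups Thoc3 and Thoc5 had an r of 0.65 and Thoc1 and Thoc5 one of 0.61, against 0.34 and -0.29 over all embryos.

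**Figure D4:**
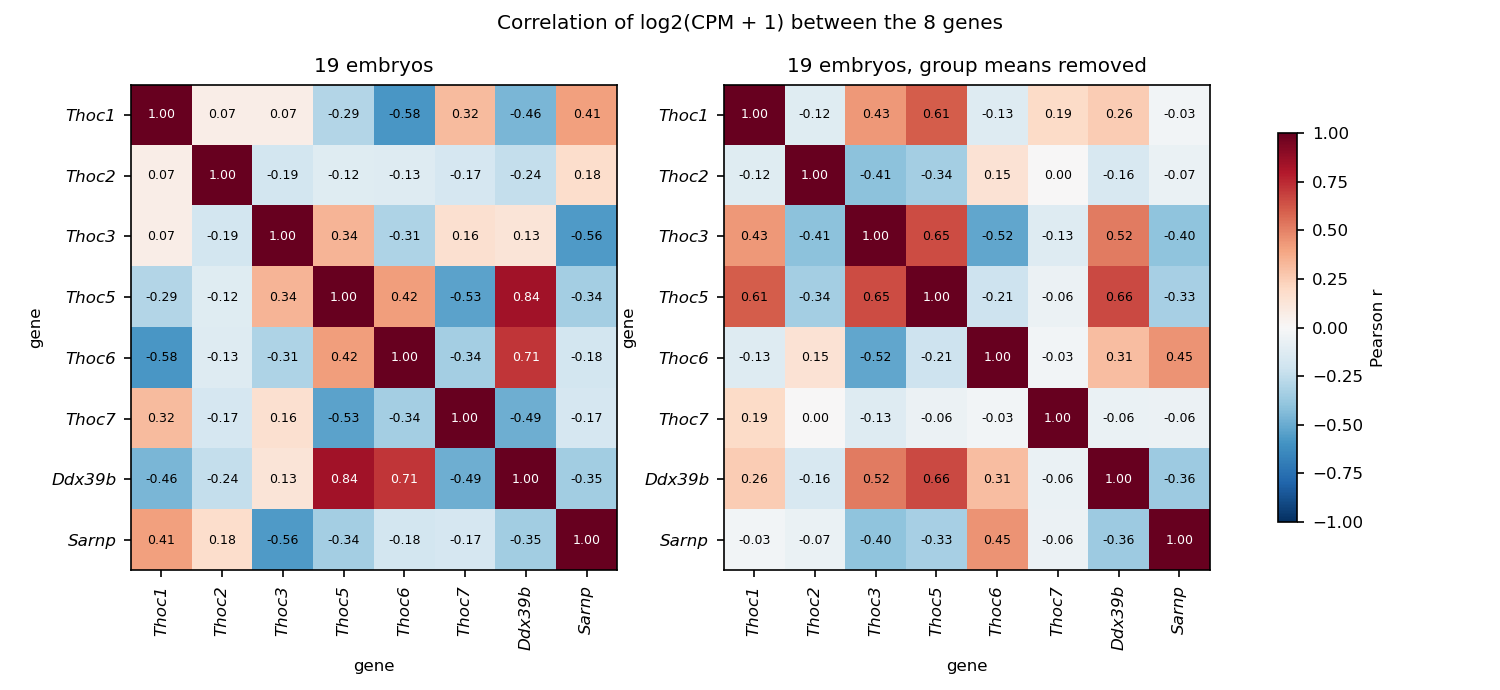
Pearson r of log2(CPM + 1) for each pair of the 8 genes (both axes), over 19 embryos on the left and after removal of group means on the right; colour and number give r. Thoc5 with Ddx39b is high in both panels, 0.84 and 0.66, while Thoc6 with Ddx39b goes from 0.71 to 0.31.

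Outside the 8, the genes with the most similar pattern over the 19 embryos were Mfsd5 for Thoc3 (r = 0.95), Fibp for Thoc6 (0.92), Matr3 for Thoc1 (0.86), Higd2a for Sarnp (0.86), Trp53rkb for Thoc5 (0.86) and Rps29 for Thoc7 (0.85), out of 6174 genes compared. Thoc3 had the most company, with 7.01% of these genes above an r of 0.7, and Thoc2 the least. These are the highest of many values and carry no test.

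The neighbouring steps of the export pathway were counted in the same fits. Of 17 export adaptors and receptor genes, 6 genes of TREX-2, a complex that docks genes at the pore, and 6 genes acting at the cytoplasmic face of the pore, the targeted gene Alyref was the only 1 called in the Alyref KO comparison (log2 -2.05, adjusted p = 0.0227). In that comparison 0.228% of all genes were called, and 0% with scaling to the spike-ins. With Y-linked level as a covariate 1 gene in all was called. None of the 29 was called in the labelled Gabpb1 KO morulae, where 1.65% of all genes were. There the median log2 differences of the lists were 0.06, 0.03 and -0.04, beside 0.06 for all genes, and in the Alyref comparison -0.05, -0.01 and -0.09, beside -0.04. The interaction called Alyref (log2 1.77, adjusted p = 0.0484) and no other of the 29, where 0.907% of all genes were called. Nxt2, a partner of the export receptor, was lower in blastocysts than in morulae of the Alyref cross by 1.59 on the log2 scale (adjusted p = 0.0336). Ddx19b, a helicase of the pore, was lower in these blastocysts by 0.96 (adjusted p = 0.0463), and Cetn2 of TREX-2 was higher by 1.40 (adjusted p = 0.0196). Each was the only gene of its list called there, where 13.0% of all genes were called. These blastocysts and morulae also differ in Y-linked transcripts, as given for Thoc2. The part of that in the differences of Nxt2, Ddx19b and Cetn2 was not tested. In the remaining comparisons none of the 29 was called, where 0% to 1.86% of all genes were. Ddx39a was at 1033 and 858 CPM in Alyref KO morulae and at 954, 887 and 772 CPM in non-KO morulae, a ratio of 1.09 (0.760 to 1.55, adjusted p = 0.902), which overlaps.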

How the data were processed

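PolyA RNA of 19 single embryos in 7 groups was analysed. The authors deposited whole-number counts per gene, with a merged exon length in bases as a further deposited column. Per the submitters' processing notes Trimmomatic, Trim Galore, cutadapt, STAR and featureCounts were used with mm10; versions and the strand setting are not given in the sources used here. ERCC rows (92) stayed out of library sizes. Genes with an FPKM of 1 or more in at least 2 embryos (18410) were fitted with edgeR 4.0.16 (R 4.3.3) by the quasi-likelihood test, TMM scaling and 1 mean per group, and adjusted over all genes, with calls at an adjusted p under 0.05. Intervals are 95% and ratios are fitted. DESeq2 1.42.0 and limma 3.58.1 were alternatives. Replicates were not duplicates (chi-square per degree of freedom at least 19.8). The steps were run on data simulated for the labelled Gabpb1 KO comparison, with log2 changes of 1 and 2 in either direction. The outcome is not reported here. Changes smaller than 1, as the 8 genes had in both KO comparisons, were not simulated. The 8 genes, the 3 lists and the markers were chosen with earlier results of these data known. Named besides the 8 are targeted genes, Ddx39a, list genes that were called, and for each of the 8 the genes of 20 or more mean CPM with the highest r; that of Ddx39b is not reported here. Markers of oocytes summed to 0.802 to 10.4 CPM, of fibroblasts and blood to 0.062 to 128 CPM, and of primitive endoderm to 124 to 275 CPM. Those of fibroblasts and blood were at 3.01 to 128 CPM in labelled Gabpb1 KO morulae and 21.8 to 56.4 CPM in their non-KO counterparts. In the other groups they were at most 5.33 CPM. The blood gene Hba-a1 alone reached 128 CPM.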

Additional observations from a re-analysis of the deposited data

How the results depend on the processing

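Over 12 other settings and 19 omissions of 1 embryo, the count of the 8 genes called was 0 except in 2 comparisons. For the difference between KO effects it was 1 with DESeq2 (4.86% of all genes called) and 1 with embryo weights (4.20%), and 0 to 1 without single embryos. For stage in the Alyref cross it was 3 with embryo weights (Thoc2, Thoc3 and Thoc6), a setting that called 39.4% of all genes, and 0 to 1 without single embryos. Nothing in the labels pairs embryos by replicate number. Of 17 pairs with the same number, 5 had a correlation over 0.1 (range -0.19 to 0.21). With deviations from means of 2 or 3 embryos, these values cannot tell whether embryos were paired. A replicate block called 0 of the 8 in every comparison and 8 genes in all for Alyref KO in place of 42, and gave Thoc7 0.0336 in the difference between KO effects. Y-linked level as a covariate called 1 gene in all for Alyref KO and 178 for labelled Gabpb1 KO, in place of 42 and 303. It gave Thoc1 -0.56 in place of -0.40 (Alyref KO). Scaling to spike-ins called 0 and 26 genes in all in these comparisons. Fits on only the groups compared called 0 genes in all for Alyref KO and for labelled Gabpb1 KO, in place of 42 and 303. For stage in the Alyref cross they called 24 genes in all, in place of 2402. Scaling to spike-ins gave log2 values of -0.28 for Ddx39b and -0.49 for Thoc5 (stage, Gabpb1 cross), -0.22 for Sarnp, -0.0746 for Thoc1, -0.54 for Thoc3 and -0.13 for Thoc7 (labelled Gabpb1 KO), 0.0380 for Thoc3 (Alyref KO), -0.58 for Thoc3 (difference between KO effects), and -0.0852 for Thoc3 and -0.15 for Thoc5 (difference between stage effects). The median of all genes was there -0.40 for labelled Gabpb1 KO and -0.06 for Alyref KO, and relative to it Thoc3 alone of the 8 changed sign in these. Limma gave Thoc3 0.0427 (pseudocount 0.1) and 0.0421 (pseudocount 1) in Alyref KO. With non-KO morulae of both crosses as control, Thoc3 was at 0.26 (Alyref KO) and -0.12 (labelled Gabpb1 KO) and Thoc5 at 0.18 (Alyref KO). Leaving out 1 embryo gave Thoc3 -0.20 to 0.14 and Thoc5 -0.55 to 0.19 (Alyref KO), Thoc3 -0.11 to 0.57 and Thoc2 -0.72 to 0.000169 (labelled Gabpb1 KO), and Thoc3 -0.0617 to 0.62, Thoc5 -0.78 to 0.00653 and Thoc7 -0.29 to 0.32 (difference between KO effects). The causes were not tested. Where an omission left 1 embryo in a group, it was assumed to vary like the others. Each of the 8 genes had at least 189 counts in every embryo, and the number of embryos, 2 or 3 a group, limits the precision.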
